A study of Mus musculus with 2 samples.

Results

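The genes described here encode the laminin chains, the nidogens, the heparan sulfate proteoglycans perlecan and agrin, and the integrin subunits. Together they cover much of the basement membrane and the main receptors that hold cells to it. They were chosen by symbol: Lama, Lamb or Lamc followed by 1 digit, numbered Itga and Itgb genes with Itgav, Nid1, Nid2, Hspg2 and Agrn, each with a protein-coding transcript. This gave 36 of the 55536 genes measured: 11 laminin chains, 2 nidogens, 2 proteoglycans, 13 integrin α subunits and 8 integrin β subunits. Heart RNA, total and depleted of ribosomal RNA, was measured in females of the hybrid strain B6CASTF1/J at an age of 25 days. They are offspring of a laboratory strain crossed with a wild-derived strain, and 2 libraries (replicates 1 and 2) were prepared, with 300 ng of RNA as input to each and ERCC spike-in RNA added. The labels give both animals the same genotype, age and sex and no treatment. The labels number the animals separately, under 1 common donor entry, so the libraries are treated here as coming from 2 mice. No condition was compared: every test below sets the reads of 1 library against those of the other, and means are given as ± SD with n = 2 libraries.

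The basement membrane is a thin sheet of matrix that surrounds each cardiomyocyte, each smooth muscle cell and the outer side of the vessel endothelium. Laminins are cross-shaped trimers of 1 α, 1 β and 1 γ chain that assemble into a network on the cell surface. Nidogens and perlecan tie that network to collagen IV, and agrin links laminin to dystroglycan. Integrins are heterodimers of 1 α and 1 β subunit that bind laminins, collagens or fibronectin outside the cell and connect to the actin cytoskeleton inside it. In heart muscle they sit at the costameres and intercalated discs, and inherited loss of the laminin α2 chain causes a muscular dystrophy.

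The gene tables held 42966739 estimated counts in replicate 1 and 42720824 in replicate 2, and the spike-in RNAs added 0.518% and 0.544%. Levels below are in TPM, transcript abundance scaled by length and by library, so that different genes can be set side by side. They come from the alignment-based gene tables unless the second deposited quantification, called read-based here, is named. At least 1 TPM in both libraries was called detected. By that measure 26 of the 36 genes were detected, against 10985 of 22028 protein-coding genes (49.9%). In mean TPM 18 of the 36 were at or above 10, 9 lay between 1 and 10, and 9 lay under 1. The highest was 693-fold above the lowest, and together the group held 0.0954% of all TPM in replicate 1 and 0.0873% in replicate 2. Cardiomyocyte markers were at 42681 summed TPM in replicate 1 and 44021 in replicate 2 over 8 genes, all detected, in keeping with the tissue named in the labels. In bulk RNA, fewer cells of a type and less RNA per cell cannot be told apart.

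**Figure D1:**
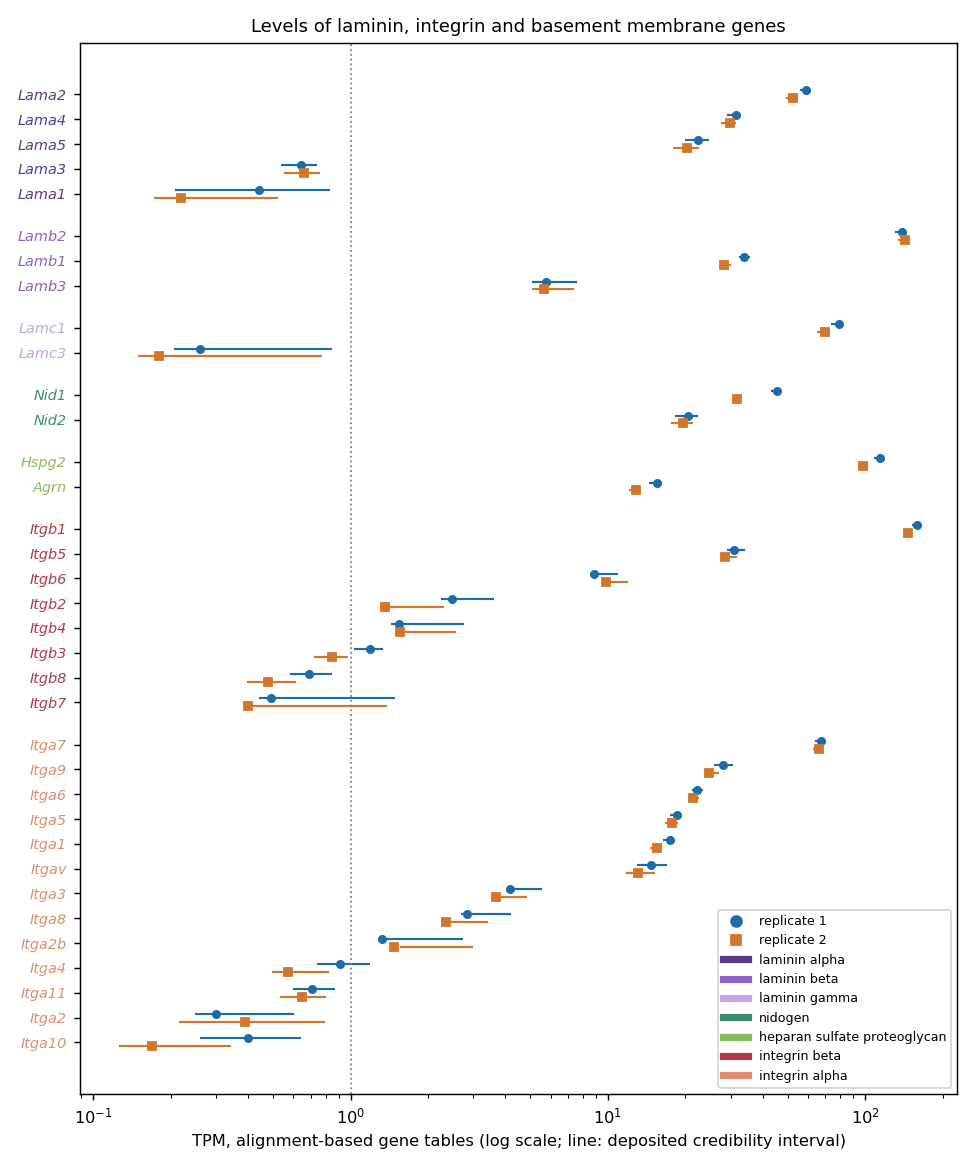
TPM of the genes (log axis) in replicate 1 (circles) and replicate 2 (squares), by class down the page; lines are the credibility intervals deposited with the values, and the dotted line marks 1 TPM. Itgb1 and Lamb2 lead, 9 genes lie under 1 TPM on average, and most pairs of points lie close together compared with the distance between genes.

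Among the laminin α chains, Lama2 was the highest. It encodes the α chain of the laminin around muscle fibres (identifier ENSMUSG00000019899.16, chr10:26980036-27619758 of mm10, minus strand) and had 58.8 TPM in replicate 1 and 52.4 TPM in replicate 2. Lama4, a chain of the endothelial basement membrane, had 31.4 and 29.8 TPM in replicates 1 and 2. Lama5, found in mature vessels and many epithelia, had 22.4 and 20.4 TPM in replicates 1 and 2. The order Lama2, Lama4, Lama5 was the same in both libraries and in both quantifications. On the log2 scale Lama2 exceeded Lama4 by 0.86 ± 0.06 and Lama4 exceeded Lama5 by 0.52 ± 0.04. In the read-based tables the first gap was 0.42 and the second 1.23. Lama3, a chain of the skin basement membrane, had 0.64 and 0.66 TPM, and Lama1, a chain of the early embryo, had 0.44 and 0.22 TPM in replicates 1 and 2. Neither reached 1 TPM in any library, and the deposited intervals of each overlapped between the libraries. Those of Lama3 and Lama1 overlapped with each other in replicate 1 but not in replicate 2. As shares of the summed TPM of the 5 α genes, Lama2 held 51.2% ± 0.739, Lama4 28.2% ± 0.816 and Lama5 19.7% ± 0.00729.

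The β and γ chains were each dominated by 1 gene. Lamb2, the β chain of neuromuscular synapses, muscle and kidney glomeruli (ENSMUSG00000052911.9, chr9:108479736-108490530, plus strand), had 139 TPM in replicate 1 and 143 TPM in replicate 2. It ranked 407 among protein-coding genes by mean TPM. Its short transcript Lamb2-206 (345 bases) took 29.8% and 31.5% of the gene in replicates 1 and 2, but 0 read-based. The long transcript Lamb2-201 alone had 80.1 and 85.1 TPM in replicates 1 and 2 (87.7 and 94.8 read-based). Lamb1, the β chain widespread in early development, had 33.7 TPM in replicate 1 and 28.2 TPM in replicate 2. Lamb2 exceeded it by 2.19 ± 0.21 on the log2 scale (1.77 read-based) and held 79.3% ± 2.08 of the β total. Lamc1, the γ chain shared by most laminins (ENSMUSG00000026478.14, chr1:153218922-153332786, minus strand), had 78.9 TPM in replicate 1 and 69.9 TPM in replicate 2, and held 95.7% ± 0.429 of the γ total. Lamc3 had 0.26 and 0.18 TPM in replicates 1 and 2 and was not detected. Lamb3, the β chain that joins Lama3 in the epidermal laminin, was low but present, with 5.74 and 5.67 TPM in replicates 1 and 2. Its noncoding transcript Lamb3-207 (355 bases) took 37.7% and 32.0% of the gene in the alignment-based tables and 0 in the read-based ones. Epithelial markers, 6 genes in all, summed to 2.73 TPM in replicate 1 and 2.13 TPM in replicate 2, with Krt5 at 0 in both and 1 of 6 detected. Summed over chains, α genes reached 113.7 and 103.4 TPM, β genes 178 and 177 TPM, and γ genes 82.7 and 72.8 TPM in replicates 1 and 2, so β chain RNA was the highest of the classes in both libraries.

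**Figure D2:**
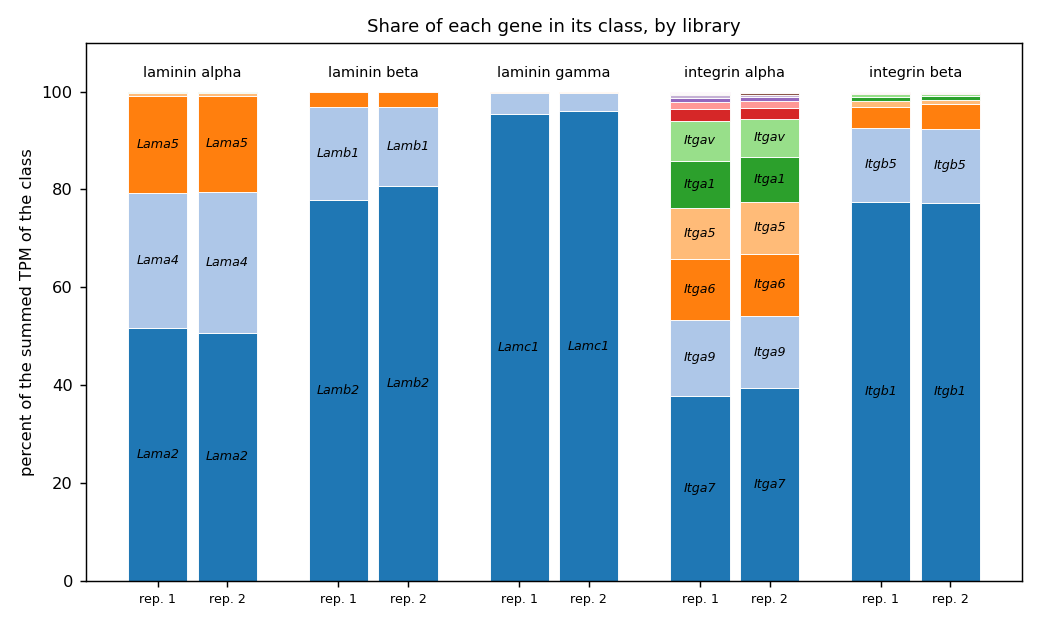
Share of each gene in the summed TPM of its class (percent, bars start at 0), with replicate 1 left of replicate 2; small segments are not labelled. Lamc1, Lamb2 and Itgb1 each hold over 75% of their class in both libraries, while the α classes are divided among several genes.

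The linkers of the laminin and collagen networks were well expressed. Hspg2, which encodes perlecan (ENSMUSG00000028763.17, chr4:137468769-137570630, plus strand), had 114 TPM in replicate 1 and 98.3 TPM in replicate 2, the third level of the group. Nid1, nidogen-1 (ENSMUSG00000005397.8, chr13:13437551-13512269, plus strand), had 45.3 TPM in replicate 1 and 31.9 TPM in replicate 2, with deposited intervals that did not overlap. Nid2 had 20.4 and 19.6 TPM in replicates 1 and 2, with overlapping intervals. Nid1 stood above Nid2 in both libraries, by 1.14 on the log2 scale in replicate 1 and 0.70 in replicate 2. Nid2 shares 437 exonic bases with Rtraf on the opposite strand, which had 27.1 and 26.6 TPM in replicates 1 and 2. Whether the deposited counts used strand is not given in the sources used here, so reads from the shared bases are uncertain.

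Agrn, agrin, had 15.6 TPM in replicate 1 and 12.9 TPM in replicate 2, below Hspg2 by 2.89 ± 0.04 on the log2 scale. Agrin is known for small alternative exons, called y and z. The y exon adds heparin binding, and the z exons, used by motor neurons, give the form that clusters acetylcholine receptors at the neuromuscular junction. These exons carry the difference between the agrin forms and are short enough to show whole. They lie on the minus strand of chromosome 4, at chr4:156169546-156169557 (y), chr4:156168546-156168569 (z8) and chr4:156167777-156167809 (z11) of mm10. The sequences are read 5′ to 3′ from the GENCODE M21 transcript of Agrn that holds all 3, with the alternative exon in capitals and 15 neighbouring transcript bases on each side in lower case.
Agrn y: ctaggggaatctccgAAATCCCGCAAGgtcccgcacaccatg
Agrn z8: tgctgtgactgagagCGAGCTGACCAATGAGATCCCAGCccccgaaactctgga
Agrn z11: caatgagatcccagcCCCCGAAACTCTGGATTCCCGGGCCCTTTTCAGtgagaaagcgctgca
Inclusion was taken as the TPM of transcripts with an exon over the TPM of all transcripts that include or skip it. The y exon was in 10.8% and 9.06% of agrin transcripts in replicates 1 and 2 (15.04% and 10.97% read-based), and z11 in 5.54% and 3.65% (10.7% and 6.29% read-based). Both exons were thus in the minority in both libraries and both quantifications. The value for z8 rested on the quantification, at 40.8% and 41.9% in replicates 1 and 2 but 19.1% and 19.4% read-based. It counts the short retained-intron transcript Agrn-205, which alone took 33.5% and 37.5% of the gene. For z11 the same transcript counts as skipping the exon. The other transcript with z8, Agrn-203, is the only one with z11, so the gap between the z8 and z11 values rests on Agrn-205. The leading transcript by both quantifications was Agrn-206, which skips all of these exons, with 54.0% and 55.0% of the gene in replicates 1 and 2.

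Itgb1 was the highest gene of the group. It encodes the β1 subunit that pairs with most laminin, collagen and fibronectin binding α subunits (ENSMUSG00000025809.15, chr8:128685654-128733200, plus strand). It had 159 TPM in replicate 1 and 146 TPM in replicate 2, rank 378 among protein-coding genes, and held 77.4% ± 0.123 of the β subunit total. Itgb5, a vitronectin receptor subunit that pairs with αv, had 30.8 and 28.4 TPM in replicates 1 and 2, and Itgb1 exceeded it by 2.36 in log2 TPM in both libraries. Itgb6, an αv partner known from epithelia that activates TGF-β, had 8.83 TPM in replicate 1 and 9.85 TPM in replicate 2, above the epithelial marker sums given for the laminin chains. The β subunits of blood cells were low: Itgb2 of leukocytes had 2.48 and 1.36 TPM, Itgb3, shared by platelets and other cells, 1.19 and 0.85 TPM, and Itgb7 of lymphocytes 0.49 and 0.40 TPM in replicates 1 and 2. Itgb4, the partner of α6 in hemidesmosomes, had 1.54 and 1.55 TPM, and Itgb8 had 0.69 and 0.48 TPM in replicates 1 and 2. Below Itgb6, the order of the β genes rests on deposited intervals that overlapped in both libraries between Itgb2 and Itgb4 and between Itgb7 and each of Itgb3 and Itgb8.

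Muscle splices an extra exon, called D, into Itgb1. It ends the reading frame early and replaces the common β1A tail, which anchors the receptor to talin and other adaptors, with the β1D tail, known for tighter binding to the cytoskeleton. In GENCODE M21 this exon belongs to Itgb1-204, annotated as a fragment of 711 bases and 4 exons. Both tails are shown because they tell the leading Itgb1 transcripts apart. The D coding bases are at chr8:128726983-128727054 and the A tail bases at chr8:128732023-128732085, both on the plus strand of mm10. The 15 bases before each are in lower case, the bases particular to each tail are in capitals, and each run stops at the end of the coding sequence.
Itgb1 D: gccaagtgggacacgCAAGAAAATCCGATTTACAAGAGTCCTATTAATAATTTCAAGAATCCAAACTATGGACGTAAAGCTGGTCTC
Itgb1 A tail: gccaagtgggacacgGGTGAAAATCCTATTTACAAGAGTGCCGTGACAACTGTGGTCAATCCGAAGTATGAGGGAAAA
The D part has 72 coding bases and the A part 63. In a global alignment 41 of 72 columns were identical (56.9%). Transcripts with the D exon held 25.8% of the Itgb1 TPM that includes or skips it in replicate 1 and 26.2% in replicate 2, and 27.6% and 30.8% in the read-based tables. All 4 values lay between 25.8% and 30.8%, with the A tail in the majority. The D transcript amounted to 40.5 and 38.3 TPM in replicates 1 and 2, more than any other β subunit gene. These shares are estimates from an abundance model in which the D form is represented by a 3′ fragment, and junction reads were not analysed here.

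Itga7 was the highest α subunit. It encodes the laminin receptor subunit of striated muscle (ENSMUSG00000025348.9, chr10:128933818-128958282, plus strand), and its loss causes a myopathy. It had 67.6 TPM in replicate 1 and 66.2 TPM in replicate 2, and held 38.6% ± 1.16 of the α subunit total. Its extracellular part is made with 1 of 2 mutually exclusive exons, X1 or X2, which change how well the receptor binds different laminins. They are shown because the data separate them clearly. X1 is at chr10:128941445-128941576 and X2 at chr10:128941822-128941941, plus strand of mm10, read from Itga7-202 and Itga7-201, with the exon in capitals and the shared neighbouring bases in lower case.
Itga7 X1: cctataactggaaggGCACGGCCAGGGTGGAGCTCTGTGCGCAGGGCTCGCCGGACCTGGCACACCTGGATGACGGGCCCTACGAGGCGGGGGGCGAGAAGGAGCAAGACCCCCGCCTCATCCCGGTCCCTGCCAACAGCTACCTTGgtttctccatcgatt
Itga7 X2: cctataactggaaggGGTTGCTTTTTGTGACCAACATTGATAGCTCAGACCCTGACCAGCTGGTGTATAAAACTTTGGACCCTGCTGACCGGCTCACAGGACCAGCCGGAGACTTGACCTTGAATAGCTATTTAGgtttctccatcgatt
X1 has 132 bases and X2 has 120, and 58 of 132 aligned columns were identical (43.9%). X2 was in 83.3% of these transcripts in replicate 1 and 84.1% in replicate 2, and X1 in 16.7% and 15.9%. The read-based tables gave 82.0% and 83.2% for X2 and 18.0% and 16.8% for X1 in replicates 1 and 2. Across both libraries and both quantifications X2 thus lay between 82.0% and 84.1%.

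The cytoplasmic tails of Itga7 and Itga6 also come in A and B forms, made by including or skipping an A exon near the 3′ end. The exons are shown because their measured inclusion, unlike that of X1 and X2, differed between the quantifications. The Itga7 A exon is at chr10:128956611-128956723 and the Itga6 A coding bases are at chr2:71853534-71853638, both on the plus strand of mm10, in capitals as above.
Itga7 A: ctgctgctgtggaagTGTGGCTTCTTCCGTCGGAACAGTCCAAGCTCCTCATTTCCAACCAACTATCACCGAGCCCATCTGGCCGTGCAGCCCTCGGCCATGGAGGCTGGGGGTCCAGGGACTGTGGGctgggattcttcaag
Itga6 A: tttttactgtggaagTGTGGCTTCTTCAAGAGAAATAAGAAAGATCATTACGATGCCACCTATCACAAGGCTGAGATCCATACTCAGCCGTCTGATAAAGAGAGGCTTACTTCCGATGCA
Both begin with the same 12 bases, TGTGGCTTCTTC, next to the membrane-spanning part. Inclusion of the Itga7 A exon was 23.2% and 21.7% in replicates 1 and 2, but 2.34% and 1.16% read-based. It rests on Itga7-204, a fragment of 984 bases, and the B form was in the majority by both quantifications. Inclusion of the Itga6 A exon was 47.97% and 46.7% in replicates 1 and 2, and 32.0% and 31.8% read-based. Among the long protein-coding transcripts Itga6-201 (with A) and Itga6-202 (without) the A form held 79.7% and 78.3% in replicates 1 and 2, and 53.2% and 53.9% read-based. Which Itga6 tail was in the majority depended on whether a noncoding transcript of 2721 bases, with 38.0% and 38.5% of the gene, was counted.

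**Figure D3:**
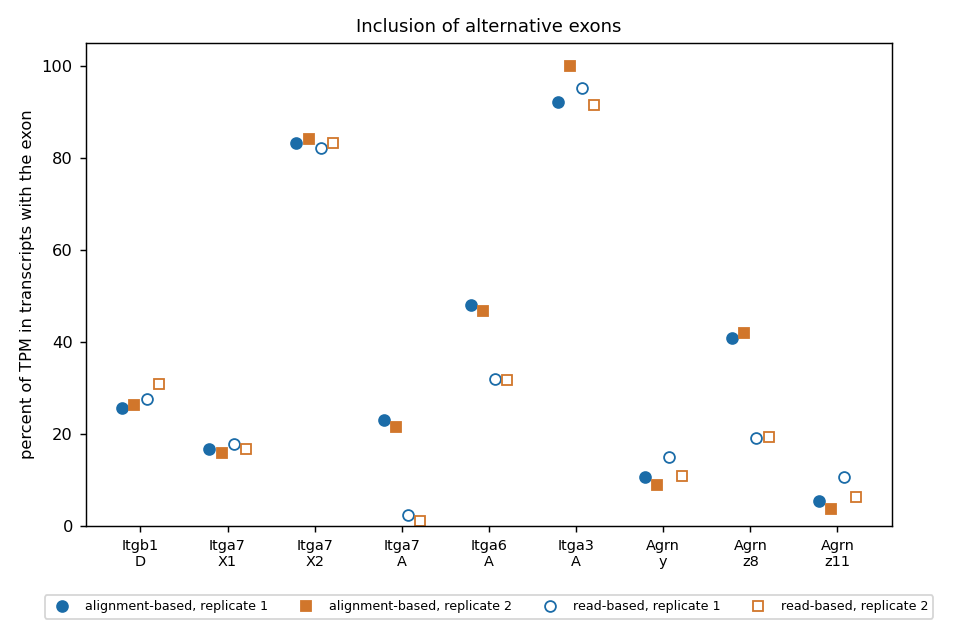
Percent of the TPM in transcripts that include or skip an exon that includes it, for 9 exons of 5 genes; filled symbols are alignment-based, open symbols read-based, circles replicate 1 and squares replicate 2. Itgb1 D and Itga7 X1 and X2 agree across all 4 symbols, while Itga7 A, Itga6 A and Agrn z8 are higher alignment-based in both libraries.

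The other laminin receptors among the α subunits were lower. Itga6, which pairs with β1 or β4, had 22.2 and 21.5 TPM in replicates 1 and 2, below Itga7 by 1.61 ± 0.01 on the log2 scale. Itga3, of epithelia and smooth muscle, had 4.16 and 3.69 TPM in replicates 1 and 2, and its A exon was in 92.1% and 100% of transcripts (95.2% and 91.5% read-based). Together these 3 laminin-binding subunits held 53.4% ± 1.34 of the α subunit TPM, and 66.2% and 61.2% read-based in replicates 1 and 2. The read-based values count 111 and 73.0 TPM of the noncoding transcript Itga6-205 in replicates 1 and 2, against 0.26 and 0.23 TPM alignment-based. It also enters the α total behind the read-based shares of the next group, and shares without it were not computed. Subunits that bind the RGD motif of fibronectin and related ligands held 20.8% ± 0.219 (12.5% and 15.2% read-based). Of these Itga5, the fibronectin receptor subunit, had 18.6 and 17.7 TPM, and Itgav, partner of β5, β6 and β8, had 14.7 and 13.1 TPM in replicates 1 and 2. Itga8, which binds nephronectin, had 2.83 and 2.35 TPM, and the platelet subunit Itga2b had 1.33 and 1.48 TPM in replicates 1 and 2. All 4 RGD-binding genes were detected. Of the 4 collagen receptors only Itga1, of smooth muscle and other stromal cells, was, with 17.4 and 15.6 TPM in replicates 1 and 2. Its deposited intervals overlapped those of Itgav in both libraries. Itga11, Itga2 and Itga10 had 0.71 and 0.65, 0.30 and 0.39, and 0.40 and 0.17 TPM in replicates 1 and 2. Itga1 shares 685 exonic bases with Gm49395 on the same strand (4.89 and 4.64 TPM), and its retained-intron transcript Itga1-206 took 45.4% and 44.6% of the gene. Itga9, a receptor for tenascin and VCAM1 that is needed for lymphatic valves, had 28.0 and 24.7 TPM in replicates 1 and 2, second among α genes. Its relative Itga4, of leukocytes, had 0.91 and 0.57 TPM in replicates 1 and 2 and was not detected.

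The level of a few genes depended on the quantification. For 30 of the 36 genes the read-based mean lay within 1.5-fold of the alignment-based mean. Itga6 stood apart, with 138 TPM in replicate 1 and 101 TPM in replicate 2 read-based, 5.49-fold above its alignment-based mean. A noncoding transcript of 443 bases, Itga6-205, took 80.4% and 72.1% of the gene there, against 1.19% and 1.08% alignment-based. With it the order of Itga7 and Itga6 was reversed in the read-based tables, at a log2 ratio of -0.96, while protein-coding transcripts alone gave 2.04 read-based and 2.37 alignment-based. The read-based mean was also higher by 1.75-fold for Itga9 and 1.54-fold for Itga3, and it was 0.645 of the alignment-based mean for Lama5 and 0.606 for Lama1. The share of Itga7 in the α total was 20.9% read-based, and 39.0% read-based when only protein-coding transcripts were counted. Of 11 pairs of related genes all had the same order in the alignment-based tables of both libraries, and Itga7 with Itga6 was the only pair that turned round read-based. Several gaps were wide, such as 234-fold for Lamc1 over Lamc3, so the shared order says little about how stable the levels are.

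**Figure D4:**
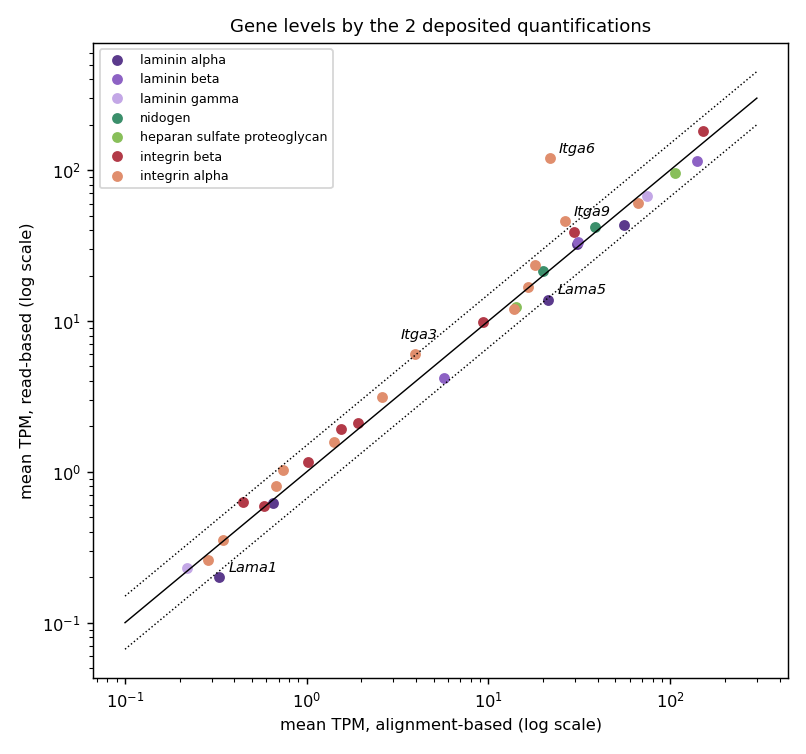
Mean TPM of each gene over the 2 libraries, alignment-based (x) and read-based (y), both on log axes; the solid line marks equal values and the dotted lines 1.5-fold. Most genes, 30 in number, lie between the dotted lines, and Itga6 lies 5.49-fold above equality.

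Leading transcripts were mostly stable. All 26 detected genes have several annotated transcripts, and 23 had the same leading transcript in both libraries, the exceptions being Itga2b, Itgb4 and Itgb6. For 20 genes the leading transcript was the same in both libraries and both quantifications. For 10 of the 26, noncoding transcripts took at least 20% of the gene in both libraries of the alignment-based tables. These included Lama5, where they took 40.7% and 44.6% in replicates 1 and 2 but 0 and 0.0884% read-based. Lama2-201 held 48.01% and 46.3% of Lama2 (74.9% and 75.4% read-based), and Nid1-201 held 96.1% and 99.1% of Nid1 in replicates 1 and 2.

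The 2 libraries were compared by scaled counts with a two-sided exact binomial test and Benjamini-Hochberg adjustment over 15839 genes, those averaging 10 counts or more. The test covers counting error only, so a call shows that the libraries differ and not that animals of this kind do. At an adjusted p under 0.05 it called 20.6% of all genes. Of the 36 genes, all of which were tested, it called 15, with 11 higher in replicate 1 (10.3% of all genes) and 4 lower in replicate 1 (10.3%). The share called grows with counts: with a mean count of at least 100 it was 27% of all genes and 16 of 30 of these. No gene of the group also passed the stricter call of at least 2-fold with separate deposited intervals, which 0.802% of all genes passed (0.505% higher and 0.297% lower in replicate 1). At any ratio 21 of the 36 were higher in replicate 1, against 48.2% of all genes, and the median log2 ratio of replicate 1 over replicate 2 was 0.05, against -0.01 for all genes. TPM, which is not rescaled between libraries, ran higher in replicate 1 for 30 of the 36, with a median log2 ratio of 0.17 against 0.09 for all genes tested.

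The matrix genes made up most of the calls higher in replicate 1. The largest among the well expressed was Nid1, with 8879 counts in replicate 1 and 6642 in replicate 2, a ratio of 1.29 (95% interval 1.25 to 1.34, adjusted p = 2.69e-55 by the exact binomial test). Lamc1 had a ratio of 1.13 (1.10 to 1.15, adjusted p = 2.97e-23) and Hspg2, with the most counts, 1.09 (1.08 to 1.11, adjusted p = 1.06e-34), with counts of 16609 and 14295, and of 43454 and 38514, in replicates 1 and 2. Agrn, Lama5, Lamb1 and Lama2 were higher in replicate 1 by ratios of 1.11, 1.10, 1.10 and 1.08. All these matrix genes thus differed by less than 1.3-fold. Lamb2 went the other way, with 15558 counts in replicate 1 and 16994 in replicate 2 and a ratio of 0.887 (0.867 to 0.906, adjusted p = 1.50e-25). Its deposited intervals overlapped. Lama4, Nid2 and the low genes Lama1, Lama3, Lamb3 and Lamc3 were not past the threshold, but Lama4 was called higher in replicate 1 with total counts (adjusted p = 0.0101 by the exact binomial test) and with spike-in totals (adjusted p = 3.19e-07).

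Of the 21 integrin genes 6 were called, against 20.6% of all genes tested. Itgb1, with 15489 counts in replicate 1 and 14763 in replicate 2, had a ratio of 1.02 (0.993 to 1.04, adjusted p = 0.374 by the exact binomial test). It was called higher in replicate 1 with total counts (adjusted p = 0.00218 by that test) and with spike-in totals (adjusted p = 1.05e-13). Itga7 was lower in replicate 1 at a ratio of 0.947 (0.917 to 0.978, adjusted p = 0.00744), and Itgb6 at 0.851 (0.784 to 0.923, adjusted p = 7.95e-04). The call for Itga7 was lost with DESeq2 size factors (adjusted p = 0.0596 by the exact binomial test), with total counts and with spike-in totals, where its log2 ratio turned to 0.03. Itgb2 was higher in replicate 1, where it had 227 counts and replicate 2 had 136, at a ratio of 1.62 (1.30 to 2.01, adjusted p = 9.55e-05). Among the other low genes, Itga4 and Itgb3 were higher in replicate 1 at ratios of 1.34 and 1.31, while Itga2b was lower at 0.628. The platelet pair Itga2b and Itgb3 therefore ran in opposite directions, at 72 and 228 counts in replicate 1 and 111 and 168 in replicate 2.

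**Figure D5:**
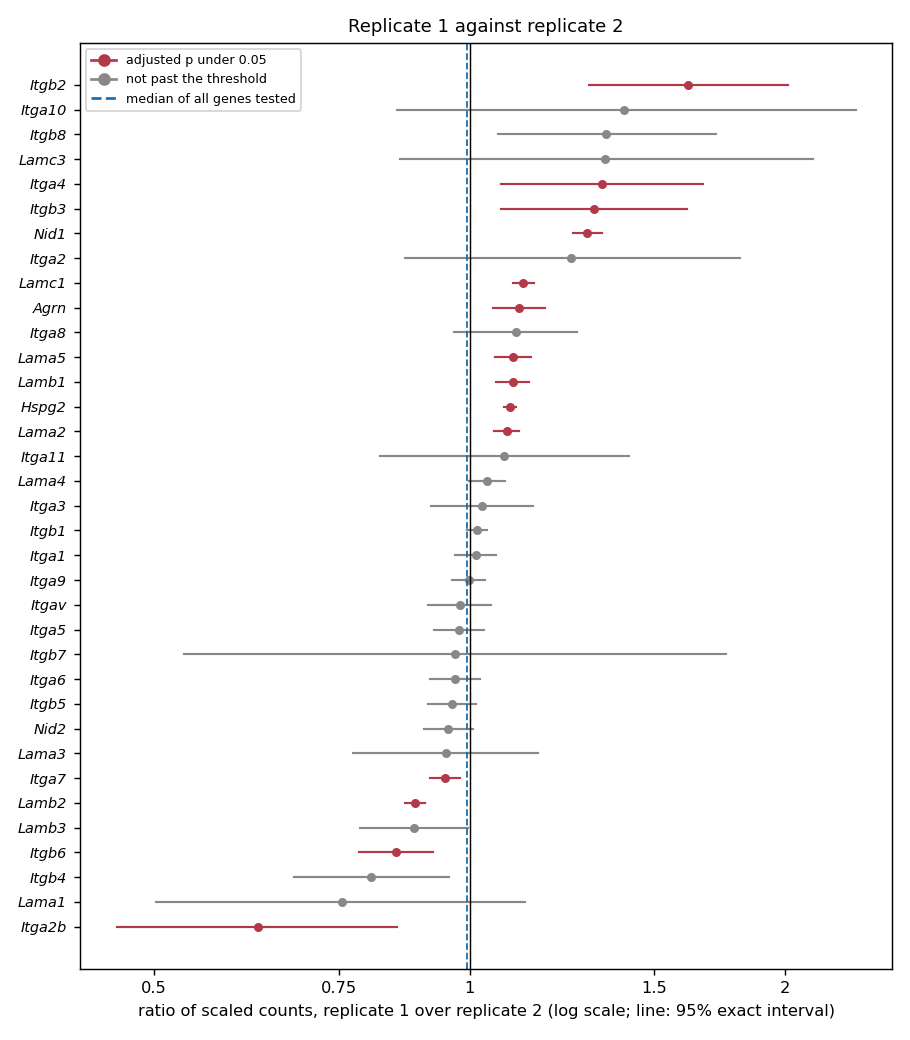
Ratio of scaled counts, replicate 1 over replicate 2 (log axis), with exact 95% intervals for counting error; red marks an adjusted p under 0.05, and the dashed line is the median of all genes tested. Matrix genes such as Nid1, Lamc1 and Hspg2 lie to the right, Lamb2 and Itga7 to the left, and no gene called reaches 2-fold.

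Markers of cell types differed between the libraries in the same directions as several of these genes, and their part in the differences was not tested. By scaled counts all 8 cardiomyocyte markers were lower in replicate 1 and were called, at ratios from 0.890 to 0.938. In TPM, Ryr2 (392 and 379.5) and Mb (7049 and 7034 in replicates 1 and 2) were higher in replicate 1, and the others were lower. For comparison, 10.3% of all genes tested were called higher and 10.3% lower in replicate 1, and their median log2 TPM ratio was 0.09. Endothelial markers summed to 723 TPM in replicate 1 and 567 TPM in replicate 2, with 8 of 10 called higher in replicate 1. Fibroblast markers summed to 852 and 708 TPM (5 of 8 called higher), smooth muscle markers to 250 and 189 TPM (4 of 5) and macrophage markers to 66.6 and 51.5 TPM (3 of 7) in replicates 1 and 2. Of the 6 pericyte markers 2 were called higher and 1 lower in replicate 1, at sums of 264 and 237 TPM in replicates 1 and 2. All 4 atrial markers were higher in replicate 1, 3 of them called, with sums of 1475 and 1153 TPM. Platelet markers summed to 15.5 and 17.8 TPM, with 1 of 3 tested called lower in replicate 1. T cell markers were near 0, at 0.59 and 0.56 TPM summed over 5 genes, as were Schwann cell markers at 4.39 and 3.79 TPM.

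The partners of these genes in the basement membrane and the cell were also measured. Of 27 genes found from a list of other basement membrane and matrix genes, 25 were detected. In replicate 1, 11 were called higher and 3 lower, and the median log2 ratio was 0.14. Over all genes tested 10.3% were called higher, 10.3% lower, and the median log2 ratio was -0.01, which also serve as the background for the lists that follow. The highest were Sparc, a collagen-binding matrix glycoprotein, at 328 ± 53.7 TPM, Col4a1, the main collagen IV chain, at 211 ± 40.6 TPM and Dcn, decorin, at 159 ± 9.24 TPM. Dcn is also among the fibroblast markers used above. Col4a1 was thus above every laminin gene. Of 16 laminin receptors other than integrins and the enzymes that glycosylate dystroglycan, 15 were detected, with 1 called higher and 3 lower in replicate 1. Rpsa, a ribosomal protein also described as a laminin receptor, had 207 ± 3.37 TPM, Dag1, dystroglycan, 136 ± 2.26 TPM and Bcam, a receptor for laminin α5, 87.9 ± 0.0424 TPM. Dag1 was thus above every integrin α gene. It was close to Lamb2 by these values, but the read-based means were 174 TPM for Dag1 and 115 TPM for Lamb2.

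Of 32 genes of integrin adhesion and signalling 30 were detected, with Fermt1, the epithelial kindlin, at 0 in both libraries. Of the 31 tested 12 were called higher and 4 lower in replicate 1. The highest were Actn2, sarcomeric α-actinin, at 726 ± 9.11 TPM and Tns1, tensin-1, at 256 ± 19.6 TPM. Among 21 integrin ligands outside the basement membrane 15 were detected, led by Col3a1, Col1a1 and Col1a2, fibrillar collagen chains, at 151 ± 38.8, 71.4 ± 13.7 and 64.0 ± 11.3 TPM. Of the 19 ligand genes tested 8 were called higher and 4 lower in replicate 1. The genes of these pathway lists that passed the stricter call were the fibrinogen chains Fga, Fgb and Fgg. They had 0, 0 and 1 counts in replicate 1, against 52, 43 and 34 in replicate 2. Fibrinogen is made by the liver, and the 6 liver markers summed to 2.83 TPM in replicate 1 and 26.7 TPM in replicate 2. All 6 passed the stricter call as lower in replicate 1. Of these sums Cyp2e1 alone gave 2.66 TPM in replicate 1 and 6.45 TPM in replicate 2. The source of these transcripts was not tested.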

How the data were processed

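Per the file headers, the authors deposited expected counts in the alignment-based tables and estimated counts in the read-based ones, as reads assigned to a gene or transcript and not normalized. TPM were scaled by the authors over all entries, per the file headers. A percent column deposited in the alignment-based transcript tables states how much of its gene each transcript takes. The deposited score columns are lower and upper credibility bounds on TPM, and the file headers give no level for them. Per the deposited listings, mm10 and GENCODE M21 were used. The sources used here name no tools. Per the labels, the spike-in mix was one for stranded, ribosome-reduced libraries.

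The members and gene lists were chosen with earlier results of these data known. Read-based transcript values were summed to genes. Rounded expected counts, scaled by TMM factors (edgeR 4.0.16, R 4.3.3), were compared gene by gene (mean count of 10 or more) in an exact binomial test on both sides, with Benjamini-Hochberg adjustment and a threshold of 0.05. With 1 library on each side no spread between animals could be fitted, and the 95% exact intervals hold counting error alone. Log2 ratios of TPM between genes used a pseudocount of 0.1. The comparison was tried on counts simulated with counting error alone, which cannot show how it behaves where libraries differ beyond that error. Named genes were all members, the 3 highest of each list by mean TPM, and list genes passing the stricter call. For 1 member and 1 list gene the single values are not reported here; the counts and sums include them. Alternative exons of members and the integrin α groups by ligand were added after the data were seen. Alternatives were DESeq2 1.42.0 size factors, total counts, spike-in totals, other filters and thresholds, posterior mean TPM, rescaled TPM, read-based values and each library left out. Exon sequences were read from GENCODE M21 transcripts and aligned globally in Python 3.11.15, which also ran the other steps (numpy 2.4.6, scipy 1.17.1, pandas 2.3.3, matplotlib 3.10.9).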

Additional observations from a re-analysis of the deposited data

How the results depend on the processing

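Detection of 26 of the 36 genes held read-based and with posterior mean TPM, and ranged from 20 at 5 TPM to 32 with TPM rescaled to protein-coding nuclear genes (26 and 27 with 1 library left out). The leading gene of each class was the same under these settings, except that Itga6 led the α subunits read-based with 40.8%. Read-based they were 47.9% for Lama2, 75.1% for Lamb2, 92.7% for Lamc1, 20.9% for Itga7 and 76.6% for Itgb1. With posterior mean TPM Lamc1 held 95.2% and Itgb1 75.9%. With protein-coding transcripts only, an alternative chosen after seeing the data, the alignment-based shares were 50.2% for Lama2, 97.6% for Lamc1, 43.9% for Itga7 and 77.9% for Itgb1, and the read-based ones 46.1% for Lama2, 74.1% for Lamb2, 97.4% for Lamc1 and 78.5% for Itgb1. The median TPM of the group, 11.6, was 10.7 read-based, 12.0 with posterior means and 29.7 when rescaled. The log2 ratio of Itga7 over Itga6 was -0.96 read-based, and Itga6-205 accounts for most of the Itga6 TPM there.

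Between the libraries 13 to 19 genes were called under the other settings, against 12.2% to 27% of all genes, and none passed the stricter call, also at a ratio of 1.5 or without the deposited intervals. Spike-in totals moved the median log2 ratio of all genes to 0.10 and that of the group to 0.16. They gave 17 genes higher and 2 lower in replicate 1, and turned the log2 ratios of Itga7 to 0.030 (adjusted p = 0.406 by the exact binomial test) and of Itga9 to 0.10. The call for Itga7 was also lost with DESeq2 size factors (adjusted p = 0.0596 by the exact binomial test) and total counts (adjusted p = 0.258 by the same test). The calls for Itga4 and Itgb3 were lost without the filter on low counts, that for Itga4 also read-based, and that for Itgb6 with spike-in totals. Calls were gained for Itgb1 and Lama4 with total counts and spike-in totals, for Itgb8 under all settings except the removal of the filter, for Itgb4 read-based and at a mean count of at least 100, and for Itga1, Itga8 and Itga9 with spike-in totals. No paired analysis was possible because the libraries form 1 group. Depth limits the genes under 1 TPM, whose ratio intervals are wide, and the cause of the differences between quantifications was not tested.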

Other observations

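The integrin genes that the symbol rule does not cover were low. Of 7 such genes 2 were detected: Itgam, the leukocyte partner of β2, with 1.98 and 1.60 TPM in replicates 1 and 2, and Itgbl1, an integrin-like matrix gene, with 1.67 and 1.46 TPM. Itgal, also a partner of β2, had 0.46 and 0.58 TPM in replicates 1 and 2. By the exact binomial test Itgam was higher in replicate 1 at a ratio of 1.66 (1.37 to 2.02, adjusted p = 2.93e-06), the same direction as Itgb2. Itgal had a ratio in the other direction, 0.761 (0.557 to 1.04, adjusted p = 0.231 by that test), and was not past the threshold.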
